A study of Homo sapiens with 6 samples.

Results

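The genes described here encode the proteins of the mitochondrial ribosome that carry an MRPL or MRPS symbol. They were chosen by name alone, as protein-coding genes whose symbol is MRPL or MRPS followed by a number and, in some, a final A, B or C. This gave 78 of the 58288 genes counted, 49 named MRPL and 29 named MRPS, spread over 21 chromosomes.

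T24 cells, an established human bladder cancer line, had been transfected with a control siRNA (siControl in the labels, NC below) or with one of a pair of siRNAs against circ235, the circular RNA hsa_circ_0000235. The siRNA labelled siRNA1 is called si-circ235-1 and the one labelled siRNA2 si-circ235-2. Each condition gave 2 libraries, labelled as biological replicates, of RNA enriched with oligo dT beads, and all 3 conditions share the cell line and a transfection. The comparisons ask what each siRNA did to the messenger RNAs of T24 cells. Circ235 has no poly(A) tail and has no value in a table of genes, so how far either siRNA lowered it cannot be read from these data.

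Mitochondria keep a ribosome of their own, which translates the messenger RNAs of the mitochondrial genome into core subunits of the respiratory chain and ATP synthase. Its ribosomal RNAs are mitochondrial products, whereas all of its proteins are encoded in the nucleus, made on cytosolic ribosomes and imported. Part of them descend from bacterial ribosomal proteins, and the others were added during the evolution of mitochondria.

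Total counts per library were 17152017 and 15855386 in NC, 15588108 and 19912893 with si-circ235-1, and 15373992 and 17562690 with si-circ235-2. Levels are given as CPM, the counts of a gene relative to the total of its library scaled by edgeR's TMM factors. Where different genes are set side by side, TPM is used, the like unit that also divides by transcript length. A gene is called higher or lower when the adjusted p of edgeR's quasi-likelihood test (Benjamini-Hochberg, over 14415 genes) is under 0.05. All 78 genes passed the filter on low counts. Replicates differed by more than sampling noise, and the p-values measure only the spread between 2 libraries a condition.

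Markers of the line were checked first. Keratins of epithelial cells were abundant, with KRT8 at 1107 to 2159 CPM, and HRAS, the oncogene that T24 carries in mutant form, stood at 87.6 to 351 CPM. EPCAM, an epithelial adhesion protein, was at 1.28 to 2.93 CPM, and VIM, the intermediate filament of mesenchymal cells, at 499 to 1498 CPM. Of the 8 markers of the line tested, 2 were called lower with si-circ235-2 than in NC and 0 higher. Of all genes 15.7% were called in each direction. The 2 were HRAS (log2 fold change −1.19, adjusted p = 0.00948) and KRT7 (−0.76, adjusted p = 0.0260). The median of the 8 was −0.56, and −0.76 to −0.16 over the 12 alternatives, under which the calls varied. None was called with si-circ235-1 in the main test. UPK2, a protein of differentiated urothelium, and KRT19 were under 1 CPM in every library, and GATA3, a luminal transcription factor, was at 1.12 CPM or less. Of 9 markers of blood, endothelial and stromal cells, CD14 reached 11.0 CPM and each of the others stayed under 1.5 CPM. CD14 was called higher in si-circ235-1 than in NC, and the part of other cells in the results was not tested. In RNA from whole cultures, fewer cells of a kind and less RNA per cell cannot be told apart.

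In control cells the 78 genes covered a wide range of levels, with a median of 72.5 TPM. MRPL41, a mitochondria-specific protein of the large subunit, had the highest level at 587 ± 189 TPM (SD, n = 2). MRPL37, also of the large subunit, followed at 397 ± 6.19 TPM, and MRPS34, of the small subunit, at 394 ± 104 TPM. The range of MRPS34 over the NC libraries overlapped those of both others. The lowest levels were those of MRPL46 (1.10 ± 0.310 TPM), MRPS24 (1.19 ± 0.231 TPM) and MRPS18C (2.02 ± 0.397 TPM). The 6 genes with under 5 CPM in NC (MRPL38, MRPL46, MRPL53, MRPS18C, MRPS24 and MRPS28, listed after their values were seen) all share exon sequence with another gene, and reads on shared exons may not have been counted for them.

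The sharpest contrast was between the siRNAs. With si-circ235-2, 44 of the 78 genes were called lower than in NC and 0 were called higher, against 15.7% of all genes tested called lower and 15.7% called higher. With si-circ235-1, 0 were called lower and 0 higher, against backgrounds of 3.64% and 2.24%. The 78 genes had a median log2 fold change of −0.70 for si-circ235-2 and of 0.08 for si-circ235-1, while the medians over all genes tested were −0.00 and −0.03. Without TMM scaling the median of all genes for si-circ235-2 moved to 0.25 and that of the 78 genes to −0.44, with 26 called lower and 1 higher (MRPL15), against 8.99% and 22.0% of all genes. For si-circ235-1 it gave 3.67% of all genes lower and 1.24% higher.

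The summed level of the 78 genes showed the same order of libraries. It was 7485 and 5571 CPM in NC, 6641 and 7523 CPM in si-circ235-1, and 4279 and 3628 CPM in si-circ235-2. Both si-circ235-2 libraries lay below the other 4 libraries, whereas the ranges of NC and si-circ235-1 overlapped. As a share of all counts, the genes took 0.666% and 0.575% in NC, 0.610% and 0.678% in si-circ235-1, and 0.472% and 0.433% in si-circ235-2.

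**Figure D1:**
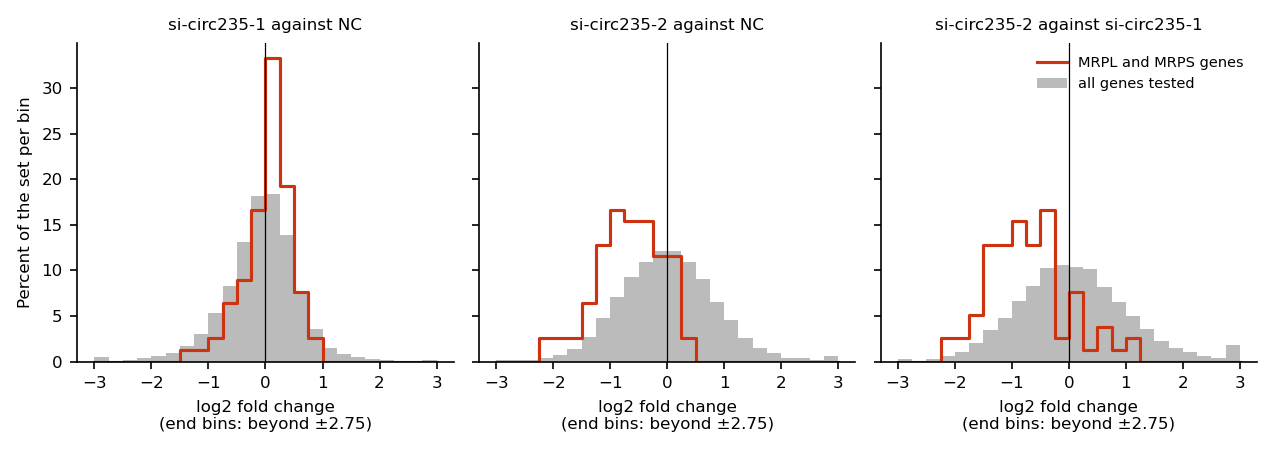
Distribution of log2 fold changes (x axis, bins of 0.25) as the percent of each set (y axis) for the 78 MRPL and MRPS genes (red line) and all 14415 genes tested (grey bars), with values beyond the axis in the end bins. The 78 genes centre near 0 for si-circ235-1 against NC and lie mostly left of 0 in both comparisons of si-circ235-2.

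The genes that fell most with si-circ235-2 belong to the large subunit. MRPL4, the counterpart of bacterial L4, stood at 107 and 62.0 CPM in the NC libraries, 80.6 and 67.9 CPM with si-circ235-1 and 21.1 and 15.9 CPM with si-circ235-2. The si-circ235-2 libraries lay below all others, and the si-circ235-1 libraries between those of NC. Its log2 fold change with si-circ235-2 was −2.20 ± 0.27 (SE; adjusted p = 0.00179), or 0.218 of the NC level. MRPL4 lies on chromosome 19 from 10251901 to 10260045 on the plus strand (GENCODE 29, GRCh38), and 21.4% of its exon sequence is shared with genes on the opposite strand.

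MRPL12 is the counterpart of the bacterial L7/L12 stalk protein, which contacts translation factors. It was measured at 36.4 and 19.4 CPM in NC, 22.6 and 35.0 CPM with si-circ235-1 and 7.25 and 6.69 CPM with si-circ235-2. The si-circ235-2 libraries again lay apart from the other 4, and the log2 fold change was −2.0 ± 0.33 (adjusted p = 0.00295). Of its exon sequence 68.2% is shared with AC139530.2 on the same strand, so its count depends on how such reads were assigned.

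MRPL28, the counterpart of bacterial L28, gave 359 and 171 CPM in NC, 218 and 263 CPM with si-circ235-1 and 83.3 and 64.99 CPM with si-circ235-2. MRPL51, which has no bacterial counterpart, gave 212 and 119.7 CPM in NC, 152 and 202 CPM with si-circ235-1 and 54.3 and 42.1 CPM with si-circ235-2. For both genes the si-circ235-1 libraries fell within the NC range and the si-circ235-2 libraries below it. The log2 fold changes with si-circ235-2 were −1.84 ± 0.31 for MRPL28 (adjusted p = 0.0031) and −1.78 ± 0.28 for MRPL51 (adjusted p = 0.00259).

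MRPL24, a protein at the exit of the tunnel for the nascent chain, differed from these. Its level was 103 and 59.9 CPM in NC, 46.0 and 41.7 CPM with si-circ235-1 and 26.6 and 22.7 CPM with si-circ235-2. All 3 conditions were separate, with both siRNAs below NC. The log2 fold change was −1.72 ± 0.26 with si-circ235-2 (adjusted p = 0.00229) and −0.89 ± 0.25 with si-circ235-1 (adjusted p = 0.0609), the lowest adjusted p of the 78 genes for that siRNA and not past the threshold. It was called lower with si-circ235-1 under 8 of the 12 alternatives. These included DESeq2, no TMM scaling, no filter and correction for length and GC content. It was not called when a library of NC or si-circ235-1 was left out, and fewer of all genes were called in those fits too. With 1 library left out its fold change with si-circ235-1 ranged from −1.19 to −0.45.

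The fall was seen in both subunits. Of the 51 large-subunit genes 31 were called lower with si-circ235-2, at a median log2 fold change of −0.74, and of the 26 small-subunit genes 12, at a median of −0.50, against 15.7% of all genes. MRPS30 and MRPS18A are counted with the large subunit, where their proteins sit in spite of their names. Among counterparts of bacterial proteins 20 of 30 in the large and 8 of 15 in the small subunit were called lower, at medians of −0.94 and −0.65. Among mitochondria-specific proteins the counts were 11 of 21 and 4 of 11, at medians of −0.56 and −0.30. Differences between these groups were not tested. Without replicate 1 of NC, 7 large-subunit and 1 small-subunit gene were called lower, against 1.99% of all genes, and without replicate 2 of si-circ235-2, 21 and 5, against 11.9%. A condition left with 1 library in such a fit is assumed to vary like the other conditions.

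Within the large subunit the members of functional sites varied. Of the 7 proteins lining or surrounding the end of the exit tunnel 5 were called lower with si-circ235-2, against 15.7% of all genes. Their median was −0.94, and −1.06 to −0.63 over the 12 alternatives. MRPL45, which holds the ribosome to the inner membrane, was at 0.37 ± 0.20 and not called. Of the 5 proteins of the stalk and its base 3 (MRPL11, MRPL12 and MRPL54) were called lower, against the same 15.7%. Their median was −1.15, and −1.49 to −0.32 over the alternatives. MRPL11 changed by −1.27 ± 0.23 (adjusted p = 0.0039), and MRPL10, which anchors MRPL12 to the ribosome, by −0.10 ± 0.18 (adjusted p = 0.702). Of the 8 proteins of the central protuberance 4 were called lower, against 15.7% of all genes, led by MRPL55 at −1.65 ± 0.30. Their median was −0.61, and −0.76 to −0.26 over the alternatives. In each of these sites fewer genes were called under some alternatives.

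**Figure D2:**
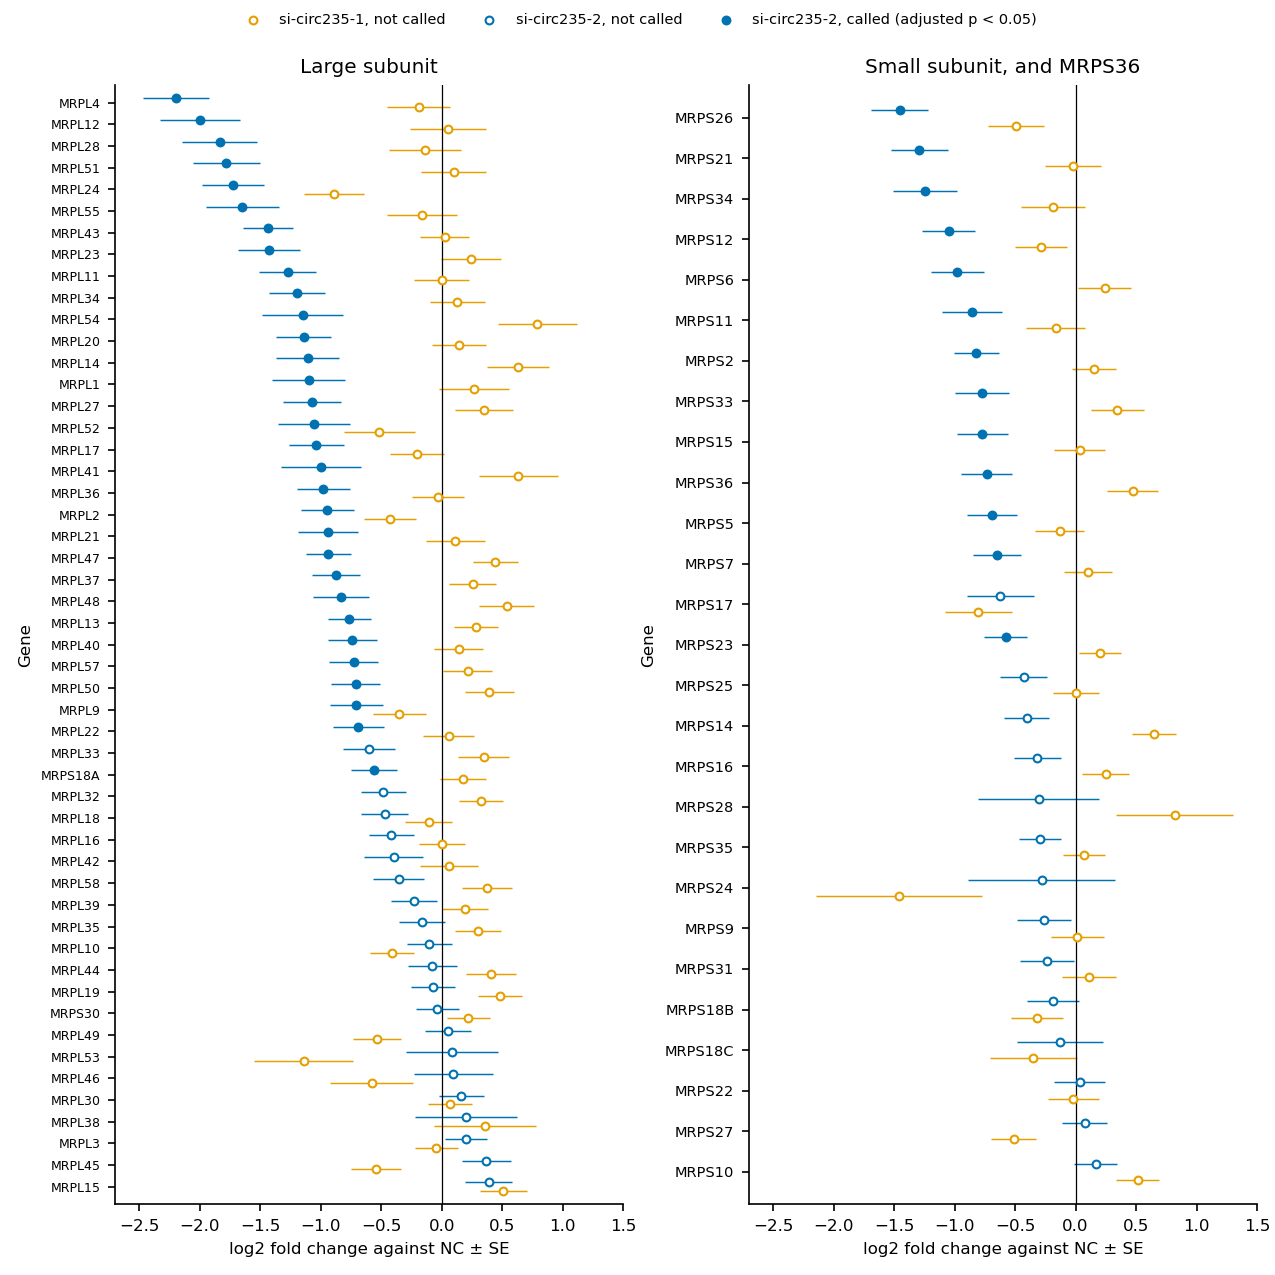
Log2 fold change against NC (x axis, with its SE) of each of the 78 genes (y axis), in orange for si-circ235-1 and blue for si-circ235-2, with filled points for genes called. In blue, 44 genes are filled and lie between −0.56 and −2.20, while no orange point is filled.

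In the small subunit, MRPS26 had the largest fall with si-circ235-2, from 137 and 87.9 CPM in NC to 45.6 and 36.6 CPM (log2 fold change −1.45 ± 0.24, adjusted p = 0.00282). With si-circ235-1 it stood at 74.4 and 85.5 CPM, also below both NC libraries, and was not called (adjusted p = 0.214). MRPS12, the counterpart of bacterial S12 at the decoding centre, gave 191 and 130.1 CPM in NC, 133 and 130.1 CPM with si-circ235-1 and 86.6 and 68.7 CPM with si-circ235-2. Its si-circ235-2 libraries lay below the rest and its log2 fold change was −1.05 ± 0.22 (adjusted p = 0.00623).

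The 3 most abundant genes were called lower too, MRPL41 the least firmly. MRPL41 was measured at 511 and 257 CPM in NC, 439 and 752 CPM with si-circ235-1 and 204 and 179.9 CPM with si-circ235-2, a log2 fold change of −1.0 ± 0.33 for si-circ235-2 (adjusted p = 0.040). MRPL37 gave 349 and 285 CPM in NC, 377 and 380.3 CPM with si-circ235-1 and 189.7 and 156 CPM with si-circ235-2 (−0.88 ± 0.20, adjusted p = 0.00859). MRPS34 gave 273 and 149.7 CPM in NC, 199 and 173 CPM with si-circ235-1 and 98.7 and 79.6 CPM with si-circ235-2 (−1.25 ± 0.27, adjusted p = 0.00682). In all 3 the si-circ235-2 libraries were the lowest, and replicates of MRPL41 were the farthest apart. MRPL41 was at −0.42 and not called without replicate 1 of NC, was not called without replicate 2 of si-circ235-2 or without TMM scaling, and was at 0.33 after correction for transcript length and GC content (adjusted p = 0.269).

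**Figure D3:**
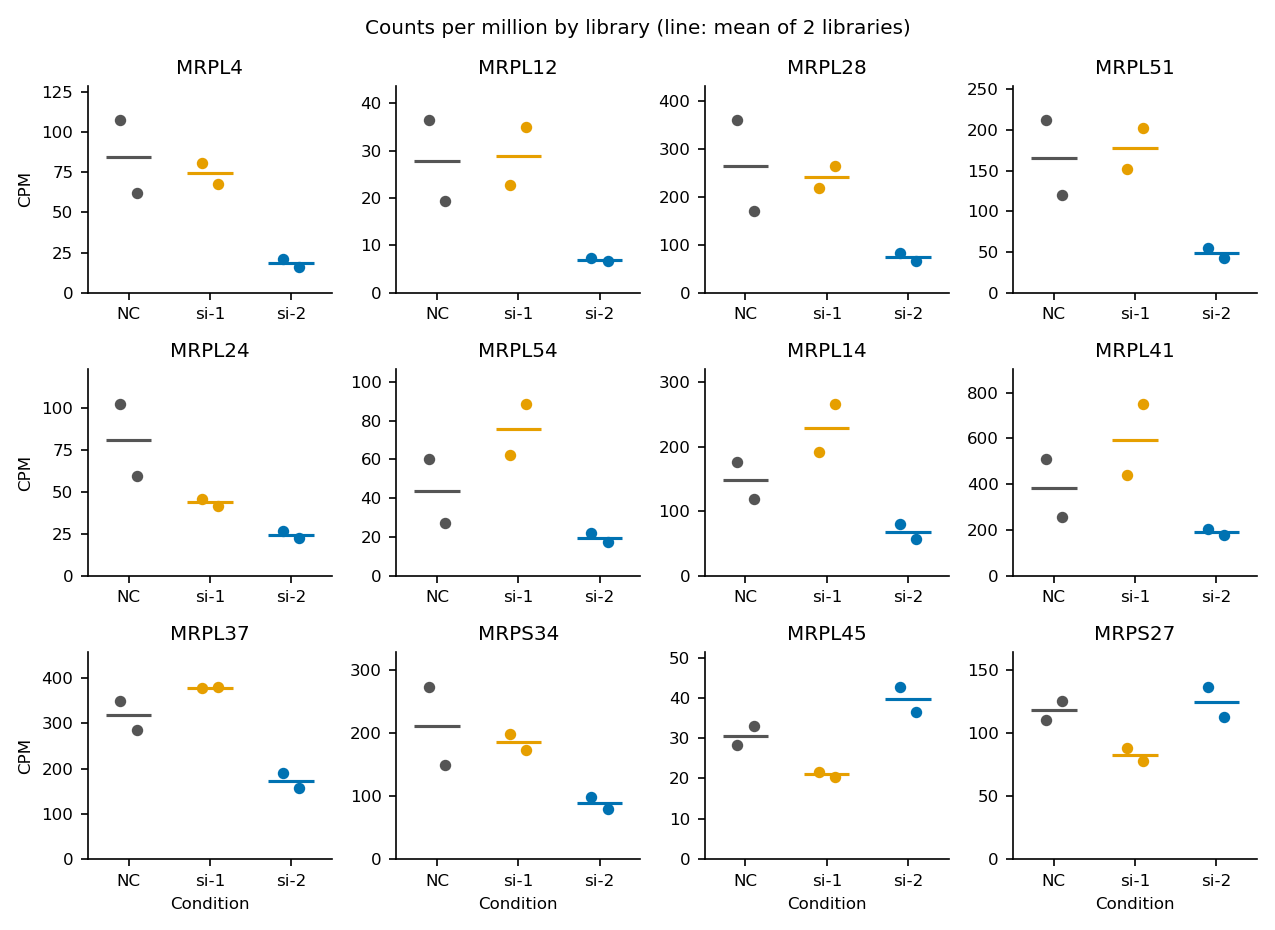
CPM (y axis, from 0) of 12 genes in each library of NC, si-circ235-1 (si-1) and si-circ235-2 (si-2), with points for libraries and lines for the mean of 2. In the first 10 panels both si-circ235-2 points lie below all others, and in MRPL45 and MRPS27 the si-circ235-1 points are the lowest.

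Of the 44 genes called lower, 21 fell at least 2-fold and 23 by less. In 59 of the 78 genes both si-circ235-2 libraries lay below both NC libraries, against 35.0% of all genes tested. For si-circ235-1 both libraries lay below NC in 14 genes and above NC in 26, against 28.8% and 26.2% of all genes tested. An unadjusted p under 0.05 was reached by 16 of the 78 genes with si-circ235-1, by 3644 of all genes, and DESeq2 called 2 of the 78 higher (MRPS10 and MRPS14) and 1 lower (MRPL24), against 4.88% and 5.58% of all genes.

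Other members were not called. MRPS30 held 109 and 125 CPM in NC, 133 and 140.02 CPM with si-circ235-1 and 119 and 109 CPM with si-circ235-2, with overlapping ranges for NC and si-circ235-2. MRPL15, the counterpart of bacterial L15, had the highest fold change of the 78 genes with si-circ235-2, at 80.1 and 71.7 CPM in NC, 97.1 and 119 CPM with si-circ235-1 and 110.5 and 88.3 CPM with si-circ235-2. Both siRNAs lay above NC, and neither difference passed the test (0.51 ± 0.20, adjusted p = 0.135, and 0.39 ± 0.19, adjusted p = 0.150). MRPL58, a peptidyl-tRNA hydrolase that belongs to the large subunit and rescues stalled ribosomes, was at −0.36 ± 0.21 with si-circ235-2 (adjusted p = 0.221).

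The paralogs MRPS18A, MRPS18B and MRPS18C encode relatives of one bacterial protein, the first in the large subunit. In the counts above MRPS18C is grouped with the bacterial counterparts, and MRPS18A and MRPS18B with the mitochondria-specific proteins. MRPS18A was at 35.5 and 34.1 CPM in NC, 39.7 and 38.8 CPM with si-circ235-1 and 24.5 and 22.8 CPM with si-circ235-2. Its libraries did not overlap between conditions, and it had the smallest called change (−0.56 ± 0.19, adjusted p = 0.0459), lost under 10 of the 12 alternatives. Opposite-strand RSPH9 covers part of its exons, 47.0% of them being shared. MRPS18B was at −0.19 ± 0.22 and MRPS18C at −0.13 ± 0.35, neither of them called.

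MRPS36 meets the naming rule although its product is now known as KGD4, a component of the 2-oxoglutarate dehydrogenase complex and not of the ribosome. It gave 36.0 and 29.9 CPM in NC, 41.3 and 49.96 CPM with si-circ235-1 and 21.0 and 18.5 CPM with si-circ235-2. The conditions were separate, and the log2 fold change with si-circ235-2 was −0.73 ± 0.21 (adjusted p = 0.0236). It was 0.22 after correction for the length and base composition of transcripts.

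The siRNAs were also compared with each other, in a test that uses the same si-circ235-2 libraries as the comparison with NC and is no second measurement. Here 47 genes were lower with si-circ235-2 and 4 higher, against 18.6% and 21.1% of all genes tested, at a median of −0.77. The largest differences were those of MRPL12 (−2.05 ± 0.33, adjusted p = 0.00131), MRPL4 (−2.01 ± 0.27, adjusted p = 0.000726) and MRPL54 (−1.94 ± 0.34, adjusted p = 0.00175). Without TMM scaling 32 were lower and 7 higher, against 10.4% and 31.4% of all genes.

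MRPL54, a protein at the base of the stalk, lay on opposite sides of NC with the siRNAs. It gave 60.4 and 27.1 CPM in NC, 62.4 and 88.7 CPM with si-circ235-1 and 21.9 and 17.5 CPM with si-circ235-2, and no library overlapped another condition. By the main test it was called only for si-circ235-2 (−1.15 ± 0.33, adjusted p = 0.0247, against 0.79 ± 0.33, adjusted p = 0.164). It was also called higher with si-circ235-1 without the filter, with 2 conditions alone and after correction for transcript length and GC content. The call for si-circ235-2 was kept under 9 of the 12 alternatives. With 1 library left out that fold change ranged from −1.60 to −0.46. MRPL14, the counterpart of bacterial L14 on the face that meets the small subunit, showed the same order, with 176 and 119.6 CPM in NC, 191 and 266 CPM with si-circ235-1 and 80.7 and 56.4 CPM with si-circ235-2. Its log2 fold change between the siRNAs was −1.74 ± 0.26 (adjusted p = 0.00102).

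The 4 genes higher with si-circ235-2 than with si-circ235-1 were MRPL45, MRPL49, MRPL53 and MRPS27. MRPL45 stood at 28.2 and 33.1 CPM in NC, 21.6 and 20.5 CPM with si-circ235-1 and 42.7 and 36.5 CPM with si-circ235-2, in separate ranges. The difference between the siRNAs was 0.91 ± 0.21 (adjusted p = 0.00581), while neither siRNA was called against NC. MRPS27, an RNA-binding protein with pentatricopeptide repeats, gave 110.4 and 125 CPM in NC, 87.9 and 77.6 CPM with si-circ235-1 and 136 and 112 CPM with si-circ235-2. Here the ranges of si-circ235-2 and NC overlapped, and the difference between the siRNAs was 0.59 ± 0.19 (adjusted p = 0.0278). Without replicate 2 of si-circ235-1 these calls were lost, and fewer of all genes were called in either direction too. With 1 library left out the difference ranged from 0.80 to 1.02 for MRPL45 and from 0.39 to 0.81 for MRPL49. It ranged from 0.96 to 1.53 for MRPL53 and from 0.44 to 0.72 for MRPS27.

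When the 4 si-circ235 libraries were taken as 1 group against NC, 0 of the 78 genes were called, against 0.0% of all genes (unadjusted p under 0.05 in 4 of the 78 and 1379 of all genes; 0 of the 78 called by DESeq2). The lowest adjusted p was 0.467 and the median log2 fold change −0.20. With 1 mean per condition and both siRNAs weighted equally, 10 were called lower and 0 higher, against 5.08% and 4.68% of all genes.

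The number of genes called with si-circ235-2 was lowest when 1 control library was left out. NC replicate 1 was higher than NC replicate 2 in 58 of the 78 genes, at a median log2 ratio of 0.29, and without NC replicate 1 only 8 genes were called lower, against 1.99% of all genes. The median of the 78 genes was then −0.50, and 69 of them were below 0. MRPL4, MRPL12, MRPL24, MRPL28, MRPL43, MRPL51, MRPL55 and MRPS26 were called lower under all 12 alternatives, the 1.5-fold minimum not counted among them. Without si-circ235-2 replicate 2, in which 70 of the 78 genes were lower than in replicate 1, 26 were called lower, against 11.9% of all genes.

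**Figure D4:**
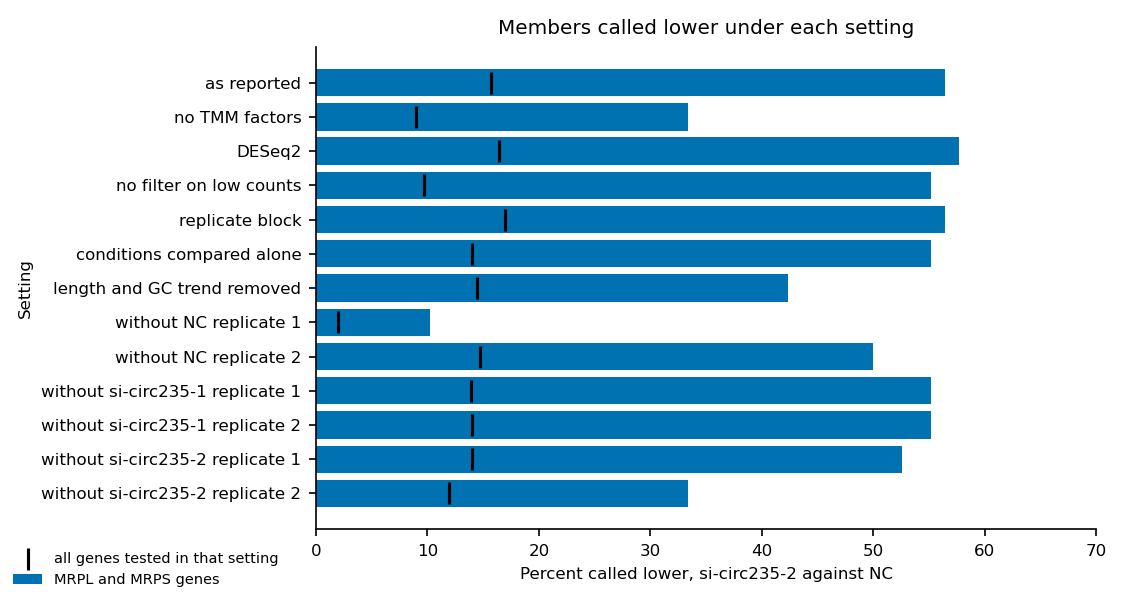
Percent of the 78 genes (bars) and of all genes tested (black ticks) called lower with si-circ235-2 against NC (x axis) under each setting (y axis). The bar exceeds the tick in every setting shown, and is shortest without NC replicate 1.

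Transcript length and base composition moved with the same comparison. Over all genes tested, the log2 fold change of si-circ235-2 against NC rose with the length of the longest transcript (Spearman's rho 0.44 over 14386 genes, which share the same 4 libraries) and fell with its GC content (rho −0.22). The 78 genes are short, with a median length of 1722 bases against 3354 for all genes, and similar in GC content, at 47.7% against 48.4%. Among the 78 genes the rho was 0.31 for length and −0.51 for GC content. For si-circ235-1 the values over all genes were 0.04 for length and −0.26 for GC content.

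The genes called lower had a median GC content of 52.9%, against 43.5% for the other 34. Their median level in NC was also higher, at 89.9 against 48.2 CPM, and the part of level in the calls was not tested. When all genes were cut into 5 equal bins, in the bin with the highest GC content (58.2% or more), 14 of 15 MRPL and MRPS genes were called lower, against 35.7% of all genes of that bin. In the bin of lowest GC content these were 7 of 17, against 7.82%. By length, 26 of 41 in the shortest bin (up to 1822 bases) were called lower, against 32.7% of all genes there, at medians of −0.82 and −0.60. In the next bin, up to 2785 bases, 11 of 23 were called lower, against 23.2%. With each library corrected for a smooth trend over both properties, 33 of the 78 genes were called lower (30 of them among the 44) and 1 higher, MRPL15, at a median of −0.35, against 14.5% of all genes lower and 11.5% higher.

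**Figure D5:**
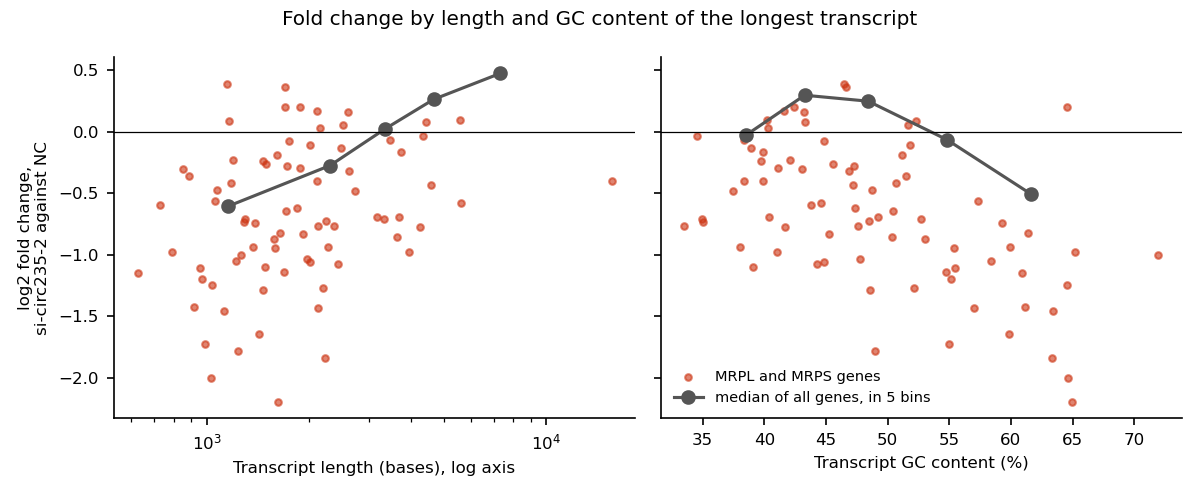
Log2 fold change of si-circ235-2 against NC (y axis) by transcript length (left, log axis) and GC content (right) for the 78 genes (red points), with the median of all genes tested in each of 5 bins (grey). The grey medians rise from −0.60 to 0.48 with length, and most red points lie below them.

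Many of these genes sit against another gene. Of the 78, 41 share exon sequence with a gene on either strand. With si-circ235-2, 21 of these were called lower, at a median of −0.62, against 15.7% of all genes. Of the 37 that share none, 23 were called lower, at a median of −0.73. Over the 12 alternatives these medians ranged from −0.83 to −0.37 and from −0.92 to −0.28. In both groups fewer genes were called under some alternatives. Few reads were counted on pseudogenes, with 305 counts in all libraries together for the 75 annotated pseudogenes named after these genes, or 0.0522% of the counts of the 78 genes. Of these, 243 were on MRPL45P2, or 7.74% of the counts of MRPL45.

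Short windows of the promoters are shown because members of the family share short words there that most promoters lack. RefSeq promoters (GRCh38.p14, 250 bases before to 50 after the start) matched 69 of the 78 genes by symbol. The word CCGGAAG, the core bound by ETS factors such as GABPA, was present on either strand in 30 of them (43.5%), against 12.2% of the promoters of 27305 genes. The word AAGATGGC, bound by YY1 and holding the letters of a start codon, was present in 21 (30.4%, against 3.52%). The word GCGCATGC, the core of the site of NRF1, was present in 6 (8.70%, against 3.68%). None of the words was found in 25. In each window the capitals mark a single match of the word or its reverse complement, and the window reads along the strand of the gene. The window of MRPS34 holds a further match in lower case.
MRPL28 (chr16:370513-370542, minus strand): cggcagatcggCTTCCGGttccggtgggct
MRPL51 (chr12:6493348-6493377, minus strand): cggcaggcggaCCGGAAGcactgaggcggg
MRPL51 (chr12:6493223-6493252, minus strand): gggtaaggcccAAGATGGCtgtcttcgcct
MRPL43 (chr10:100987497-100987526, minus strand): tcgtcccggaaCCGGAAGcctcgaggttta
MRPS26 (chr20:3046004-3046033, plus strand): tccccgcgccgCTTCCGGggcacggtggcg
MRPS34 (chr16:1773135-1773164, minus strand): tcttccggtgaCTTCCGGccggaccgctga
MRPS10 (chr6:42217865-42217894, minus strand): ccgctgtaaccCCGGAAGcaatcctgagag
MRPS10 (chr6:42217834-42217863, minus strand): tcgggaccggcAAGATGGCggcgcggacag
MRPS30 (chr5:44808949-44808978, plus strand): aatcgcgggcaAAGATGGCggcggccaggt
MRPL17 (chr11:6683365-6683394, minus strand): tccgagctaagGCGCATGCgttccctgaaa

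The words were spread over genes that fell and genes that did not. MRPL28, MRPL51, MRPL43, MRPS26 and MRPS34 carry CCGGAAG and were called lower with si-circ235-2, as was MRPL17, which carries GCGCATGC, whereas MRPS10 and MRPS30 carry one or both of the other words and were not called. CCGGAAG was in 17 of the 39 genes called lower that have a promoter here (43.6%) and in 13 of the other 30 (43.3%). AAGATGGC was in 10 (25.6%) and 11 (36.7%), and GCGCATGC in 3 and 3. A match is a run of letters and not a measured site.

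Of the 78 genes, 29 start within 1000 bases of a protein-coding gene on the opposite strand, in 29 pairs, so that neighbours may share a promoter region. In 28 of the pairs the neighbour lies outside the family, and the 26 such neighbours that were tested had a median log2 fold change of −0.03 with si-circ235-2, with 4 called lower and 2 higher, against 15.7% of all genes in each direction. In 18 of these pairs the MRPL or MRPS gene was called lower, and both genes were in 2 of these, MRPL36 with the complex I gene NDUFS6 (−0.98 and −1.49) and MRPL54 with APBA3 (−1.15 and −0.72). MRPL51 (−1.78) lies opposite the condensin gene NCAPD2, which was called higher (0.92, adjusted p = 0.00965). MRPS12 (−1.05) lies opposite SARS2, also called higher (2.55, adjusted p = 0.0406). Both pairs share exon sequence, 31.3% of that of MRPL51 and 16.3% of that of MRPS12, and reads there cannot be separated by strand. MRPL46 and MRPS11 start 34 bases apart on opposite strands, at 0.09 and −0.85, and MRPS11 alone was called.

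Proteins of the same ribosome under other names gave a like picture. AURKAIP1, of the small subunit, was measured at 581 and 281 CPM in NC, 348 and 423 CPM with si-circ235-1 and 131 and 103 CPM with si-circ235-2, with the si-circ235-2 libraries apart (−1.88 ± 0.31, adjusted p = 0.00292). CHCHD1 (−1.43 ± 0.24, adjusted p = 0.0031) and GADD45GIP1 (−1.08 ± 0.29, adjusted p = 0.019) also fell. DAP3 and PTCD3 were at −0.12 ± 0.19 and 0.14 ± 0.18 and were not called.

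Factors that work on the ribosome were called in both directions. Of 12 translation factors 2 were called lower with si-circ235-2, the elongation factors TUFM (−0.75 ± 0.21) and TSFM (−0.81 ± 0.23), and 1 higher, the recycling factor GFM2 (1.11 ± 0.28), at a list median of 0.15. These shares are near or below the 15.7% of all genes called in each direction. Of 26 genes for assembly of the ribosome or modification of its RNA 7 were called lower and 1 higher, at a median of −0.46. Those with the largest changes were the 16S rRNA methyltransferase MRM1 (−1.27 ± 0.42, adjusted p = 0.0409), the 12S rRNA dimethyltransferase TFB1M (−1.27 ± 0.25, adjusted p = 0.0049) and NGRN (0.92 ± 0.23, adjusted p = 0.0132). Without replicate 1 of NC, or without replicate 2 of si-circ235-2, fewer genes of both lists were called lower, and fewer of all genes too. The calls of GFM2 and NGRN were lost without replicate 1 of NC, where fewer of all genes were called higher. Over the 12 alternatives the medians ranged from 0.07 to 0.41 for the translation factors and from −0.49 to −0.19 for the assembly genes.

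With si-circ235-1, 2 of the 26 assembly genes were called lower, against 3.64% of all genes. RPUSD3, a pseudouridine synthase of mitochondrial RNA, gave 116 and 87.1 CPM in NC, 47.4 and 44.9 CPM with si-circ235-1 and 70.6 and 63.0 CPM with si-circ235-2. Its 3 conditions were separate, at −1.14 ± 0.20 (adjusted p = 0.0141) for si-circ235-1 and −0.61 ± 0.20 (adjusted p = 0.0371) for si-circ235-2. NOA1, a GTPase of ribosome assembly, gave 30.3 and 32.5 CPM in NC, 18.2 and 16.8 CPM with si-circ235-1 and 35.1 and 32.5 CPM with si-circ235-2. Its si-circ235-1 libraries were below the rest (−0.84 ± 0.20 against NC, adjusted p = 0.0381), and it was higher with si-circ235-2 than with si-circ235-1 (0.95, adjusted p = 0.00432). When a library of NC or si-circ235-1 was left out, these calls were partly or wholly lost, and fewer of all genes were called too. The median of the 26 with si-circ235-1 was −0.20, and −0.28 to −0.10 over the 12 alternatives.

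The cytosolic ribosome was compared because its proteins are likewise encoded in the nucleus. With si-circ235-2, 70 of the 82 cytosolic ribosomal protein genes tested were called lower and 0 higher, at a median of −1.20, against 15.7% of all genes in each direction. With si-circ235-1, 1 was called higher (RPL26L1, 1.14 ± 0.19), against 2.24% of all genes. Their summed level was 194342 and 130312 CPM in NC, 161786 and 199569 CPM with si-circ235-1 and 76603 and 60871 CPM with si-circ235-2. As for the mitochondrial proteins, both si-circ235-2 libraries lay below the other 4. Without replicate 1 of NC, 11 of the 82 were called lower, at a median of −0.90, against 1.99% of all genes. RPL36, a protein of the large cytosolic subunit, had the largest change (−2.45 ± 0.33, adjusted p = 0.00179). The difference between both ribosomes was not tested.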

How the data were processed

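RNA of T24 cells was measured in 6 libraries. The values the authors deposited are raw counts, whole numbers of reads for each gene with no normalization. The submitters' processing notes name FastQC, cutadapt, STAR and build hg38, and the sources used here do not give the counter or its annotation. Strand was not recorded, so reads of overlapping genes cannot be separated. Symbols and lengths came from GENCODE release 29 (GRCh38), matching 99.5% of identifiers, and TPM used the longest transcript.

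Counts were analysed with edgeR 4.0.16 in R 4.3.3 (filterByExpr by condition, TMM, quasi-likelihood test, 1 mean per condition). Alternatives were no TMM factors, DESeq2 1.42.0, no filter, the replicate number as a block, 2 conditions alone, correction of each library for transcript length and GC content (splines, 5 degrees of freedom), each library left out, and a 1.5-fold minimum. The fits were tested on simulated data. Members, lists and tests were chosen with earlier results of these data known. Named genes are the 5 largest changes per comparison and direction among called members with separate libraries, the 3 highest and lowest TPM, the MRPS18 paralogs, members with particular roles and up to 3 called genes per other list. Others were named after their values were seen.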

Additional observations from a re-analysis of the deposited data

How the results depend on the processing

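With si-circ235-2, genes called lower than NC numbered 44. They were 26 without TMM factors and 8 to 43 when 1 library was left out (8 without replicate 1 of NC, 26 without replicate 2 of si-circ235-2), and 33 to 45 otherwise (42 with a 1.5-fold minimum). Genes called higher were 1 without TMM factors and 1 after correction for transcript length and GC content. After that correction 59 of the 78 genes were below 0 with si-circ235-2 and 19 above, against 67 and 11 in the main test. Among those whose sign it turned were MRPL41 (0.33), MRPS18A (0.0101) and MRPS36 (0.22). With si-circ235-1, genes called higher were 2 by DESeq2, 1 without the filter, 2 with conditions compared alone and 3 after that correction, and genes called lower were 1, 1, 2 and 4, and 1 without TMM factors, with 0 to 1 and 0 to 2 when 1 library was left out. Of all genes 5.24% were higher and 6.61% lower with conditions compared alone, and 6.202% and 6.72% after that correction, so that these counts of the 78 are below the share of all genes. Between the siRNAs, genes called higher were 7 without TMM factors and 0 to 4 when 1 library was left out, and genes called lower 29 to 47 (29 without si-circ235-1 replicate 2). The mean of both siRNAs gave 10 called lower. The causes were not tested.

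Replicate numbers did not pair the libraries, with correlations of deviations of −0.09, 0.15 and 0.14 over all genes and of −0.41, 0.26 and 0.21 over the 78. With the replicate block, 44 genes were called lower with si-circ235-2, 43 of them among the 44 without it, and 1 with si-circ235-1 (MRPL24).

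With 2 libraries a condition the spread between replicates, more than depth, limits these calls. Genes under 5 CPM were measured less closely, with an SE of 0.61 for MRPS24 with si-circ235-2.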

Other observations

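Genes that act around the mitochondrial ribosome without belonging to it were also measured. Of 13 messenger RNAs of the mitochondrial genome, which this ribosome translates, 3 were called higher with si-circ235-2 than in NC and 2 lower, against 15.7% of all genes in each direction, at a list median of 0.02. MT-ND4L gave 34.7 and 86.3 CPM in NC, 44.9 and 35.6 CPM with si-circ235-1 and 436 and 552 CPM with si-circ235-2 (log2 fold change 3.03 ± 0.36, SE, adjusted p = 0.00179). MT-ATP8 (2.93 ± 0.33) and MT-ND5 (1.37 ± 0.24) were the others called higher, and MT-CO3 (−0.83 ± 0.28) and MT-ND3 (−0.73 ± 0.24) were called lower. MT-ND4L and MT-ATP8 overlap MT-ND4 and MT-ATP6, so their counts depend on how shared reads were assigned. The summed level of the 13 was 45156 and 45112 CPM in NC, 52263 and 43658 CPM with si-circ235-1 and 48779 and 42089 CPM with si-circ235-2, with overlapping ranges. The 2 called lower were lost when any library other than replicate 1 of si-circ235-2 was left out, and 2 were called higher without replicate 1 of NC.

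Of 11 genes for mitochondrial transcription and RNA stability 3 were called lower with si-circ235-2 and 1 higher. Of all genes 15.7% were called in each direction. The 3 were SLIRP (−1.22 ± 0.25), SSBP1 (−0.78 ± 0.18) and the RNA polymerase POLRMT (−0.65). SLIRP stabilises mitochondrial messenger RNA, and SSBP1 binds single-stranded mitochondrial DNA. POLG, the mitochondrial DNA polymerase, was called higher, with 18.7 and 28.3 CPM in NC, 23.2 and 12.9 CPM with si-circ235-1 and 55.6 and 53.1 CPM with si-circ235-2 (1.21 ± 0.29, adjusted p = 0.011). Without replicate 1 of NC none of these 4 was called, and without replicate 2 of si-circ235-2 the list had 1 called lower and 1 higher. Of 9 regulators of mitochondrial biogenesis, including NRF1, GABPA and YY1, 8 were tested. By edgeR's quasi-likelihood test 0 were called against NC with either siRNA. For si-circ235-1 the shares of all genes were 3.64% lower and 2.24% higher. Between the siRNAs PPRC1 (0.81 ± 0.21) and PPARGC1B (0.90 ± 0.32) were called higher with si-circ235-2, or 2 of the 8 against 21.1% of all genes, and the alternatives gave 0 to 3 (0 without replicate 2 of si-circ235-1). PPARGC1A had no count in any library.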
